A study of Mus musculus with 4 samples.

Results

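Transcript levels of 34 genes of glucose breakdown and of the response to low oxygen were followed through 6 classes of white blood cell in lung and blood of mice with and without liver metastasis. The genes were taken by symbol from a fixed list, and all 34 were found among the 32285 genes of the deposited tables. The data were 4 droplet-based single-cell libraries from female C57/Bl6 mice 6 to 8 weeks old: metastasis lung, sham lung, metastasis blood and sham blood. In the metastasis arm 800000 B16F10 cells, a mouse melanoma line, were placed in the spleen on day 0, and in the sham arm saline was. The spleen was then taken out in metastasis and sham mice alike. All of them had in addition a tumour under the skin, begun with 250000 B16F10 cells, and tissues were taken on day 7. Each combination of tissue and arm had 1 library, and how many mice contributed to each was not stated in the labels. No difference therefore has a replicate check, no test across samples was possible, and every interval below covers counting error only.

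Glycolysis turns glucose into pyruvate. Slc2a genes encode the transporters that admit glucose, hexokinases trap it as glucose phosphate, and phosphofructokinase is the main controlled step, tuned by the Pfkfb enzymes. Lactate dehydrogenase converts pyruvate to lactate, which leaves the cell through the Slc16a transporters. Under low oxygen the prolyl hydroxylases encoded by Egln genes slow down, the Hif1a protein is no longer degraded, and it switches on glycolytic genes together with Vegfa, a blood vessel growth factor, and Hilpda, an inhibitor of fat breakdown on lipid droplets. Hif1a is regulated largely at the protein level, so its transcript is not a measure of its activity. Neutrophils are known to depend on glycolysis for most of their energy.

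The hypoxia-inducible factor recognises the core ACGTG or GCGTG. RefSeq promoters (GRCm38.p6, 250 bases before to 50 after each start) were available for 31 of the 34 genes, as 46 promoters, and not for Slc2a3, Bnip3l and Ndrg1. Searched on both strands, 38 of the 46 promoters (82.6%) held at least 1 core, against 43.8% of all 32851 promoters in the table. The stricter core ACGTG, which the E-box CACGTG contains, was in 25 of the 46 (54.3%) and in 19.6% of all promoters, and CACGTG itself was in 7.15% of all. Promoters of 4 of the genes with the largest differences, Hilpda, Vegfa and Slc16a3 between tissues and Gpi1 between arms, are printed 5′ to 3′ with the cores in capitals, and a core on the opposite strand reads CACGT or CACGC.
Hilpda, chr6:29272376-29272675, plus strand: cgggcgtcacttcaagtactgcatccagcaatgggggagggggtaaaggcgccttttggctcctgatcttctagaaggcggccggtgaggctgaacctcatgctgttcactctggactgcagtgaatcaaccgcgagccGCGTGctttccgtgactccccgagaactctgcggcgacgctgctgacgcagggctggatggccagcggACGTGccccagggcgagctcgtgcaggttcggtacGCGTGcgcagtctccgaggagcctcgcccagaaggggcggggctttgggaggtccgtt
Vegfa, chr17:46032328-46032627, minus strand: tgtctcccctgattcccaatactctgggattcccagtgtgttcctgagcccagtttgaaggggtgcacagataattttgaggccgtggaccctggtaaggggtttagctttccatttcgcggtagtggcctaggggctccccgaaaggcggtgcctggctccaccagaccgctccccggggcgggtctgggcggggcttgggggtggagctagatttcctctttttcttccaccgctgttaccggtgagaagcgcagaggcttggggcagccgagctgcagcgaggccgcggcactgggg
Slc16a3, chr11:120948817-120949116, plus strand: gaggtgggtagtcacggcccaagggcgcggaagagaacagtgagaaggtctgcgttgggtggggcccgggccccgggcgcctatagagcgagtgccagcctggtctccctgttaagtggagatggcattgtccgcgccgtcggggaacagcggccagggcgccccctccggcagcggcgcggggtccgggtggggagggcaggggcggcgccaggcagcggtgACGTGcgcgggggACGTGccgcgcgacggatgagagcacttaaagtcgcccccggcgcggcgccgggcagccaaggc
Gpi1, chr7:34230287-34230586, minus strand: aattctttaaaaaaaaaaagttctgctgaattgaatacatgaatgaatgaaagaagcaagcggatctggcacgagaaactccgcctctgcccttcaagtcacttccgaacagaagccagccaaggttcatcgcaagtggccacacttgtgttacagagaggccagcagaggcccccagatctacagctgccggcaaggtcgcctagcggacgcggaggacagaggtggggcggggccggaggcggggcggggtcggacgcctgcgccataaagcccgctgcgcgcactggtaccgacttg
The promoter shown for Hilpda held 3 cores and that for Slc16a3 held 2. A second Hilpda window, chr6:29272238-29272537, is not shown and held 1. The promoters of Gpi1 and of the annotated start of Vegfa held 0. The table also lists a Vegfa start inside the gene (window chr17:46025114-46025413, in a gene that spans chr17:46016993-46032377), and that window held 2. A match describes the letters in this window only.

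Cells were assigned to a class by marker genes, with barcodes of 2 or more platelet markers left out. Metastasis lung, sham lung, metastasis blood and sham blood held 1242, 48, 1537 and 265 neutrophils. Monocytes were few, with 96, 31, 105 and 69 classical and 181, 77, 68 and 132 non-classical cells in the same order. T cells numbered 1982, 5025, 543 and 2325, NK cells 920, 1740, 42 and 210, and B cells 2141, 4668, 1724 and 8092. In all 4 libraries each class had every one of its own markers at 10 CPM or more, where CPM is UMIs per 1000000 UMIs of the class without haemoglobin. The cells were chosen by these same markers, so this is not an independent check of the classes. The libraries held 112079231 to 132540945 UMIs, of which 43.7% to 78.6% were haemoglobin, and pairs of libraries shared 109 to 316 barcodes. Lungs were filtered and passed over columns for live cells, while blood leukocytes came from density centrifugation, and these steps cannot be told apart from tissue. Platelet-carrying neutrophils left out numbered 887 in metastasis blood and 165 in sham blood, against 0 in both lungs.

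Neutrophils had the highest CPM of the 6 classes in all 4 libraries for 10 of the 34 genes, namely Slc2a1, Slc2a3, Hk3, Gpi1, Pfkfb3, Pfkfb4, Pkm, Slc16a3, Hif1a and Bnip3. Non-classical monocytes led for Eno3 and P4ha1, classical monocytes for Aldoa and Eno1, T cells for Pdk1 and Slc16a1, and NK cells for Hk1 and Egln1. For the other 16 the leading class differed between libraries. The leading class stood clear of the next, with separate 95% Poisson intervals, in 4 of 4 libraries only for Slc2a3, Eno3 and Pdk1.

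**Figure D1:**
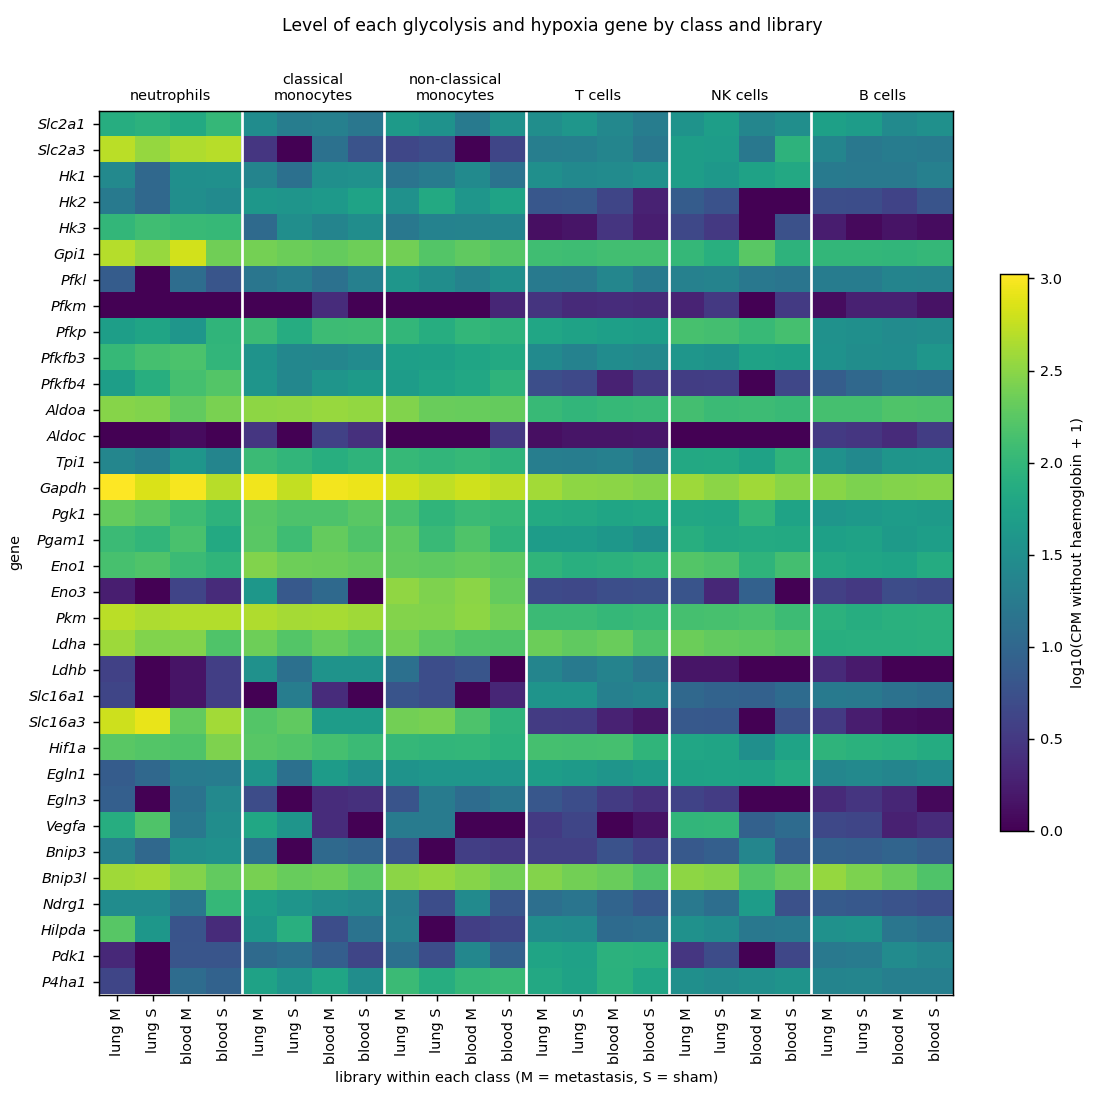
Each row is a gene and each column a class in 1 library, and the colour gives log10(CPM without haemoglobin + 1). Slc2a3, Hk3 and Slc16a3 were brightest in the neutrophil columns, Eno3 in those of non-classical monocytes, while Pfkm and Aldoc were at or near 0 throughout.

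Among the transporters that bring glucose in, Slc2a1 stood clear in neutrophils of the other classes compared in 3 of 4 libraries. Slc2a3, a high-affinity form, did so in all 4. Its level was 510.3 CPM in metastasis lung, 347 in sham lung, 462 in metastasis blood and 506 in sham blood neutrophils. In the other classes compared it ran between 0 and 88.8 CPM, the highest being sham blood NK cells. Platelet barcodes, which were not among these classes, had 393 CPM in metastasis blood and 692 CPM in sham blood. The part of platelet RNA in the neutrophil values was not tested. Slc2a3 made up 87.1%, 80.0%, 87.1% and 83.3% of the UMIs of Slc2a1 and Slc2a3 in neutrophils in the same order of libraries. The corresponding range was 25.2% to 39.5% in B cells and 34.2% to 47.5% in T cells. NK cells came nearer, with 57.4% in metastasis lung, 48.2% in sham lung and 74.8% in sham blood, the metastasis blood library having only 5 such UMIs.

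The hexokinases, which carry out the first step, split by class. Hk3 took 70.6%, 86.7%, 63.6% and 63.9% of hexokinase UMIs in neutrophils of metastasis lung, sham lung, metastasis blood and sham blood, the sham lung value resting on 15 UMIs. Hk1 took 76.5% to 94.9% in T, NK and B cells, leaving out metastasis blood NK cells with 7 UMIs, and Hk2 took 43.8% to 64.0% in the monocyte classes. Shares are of UMIs, are not corrected for gene length, and are compared between classes. Pfkp took 77.6% to 94.6% of phosphofructokinase UMIs in neutrophils, leaving out sham lung with 6 UMIs, a range that NK cells shared at 84.5% to 89.4%. Pfkm had 0 UMIs in neutrophils of all 4 libraries.

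Enolase, which forms phosphoenolpyruvate, showed the sharpest split between classes of monocyte. Eno3, known as the muscle form, had 329 CPM in metastasis lung, 276 in sham lung, 310 in metastasis blood and 204 in sham blood non-classical monocytes. In classical monocytes it had 38.5, 6.08, 9.78 and 0 CPM in that order. Every non-classical value lay above every value of the other 5 classes. Eno3 accounted for 52.9% to 62.5% of Eno1 and Eno3 UMIs in non-classical monocytes and for 0% to 12.2% in the other classes.

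At the lactate end, Ldhb, the form known to favour the return of lactate to pyruvate, took 7.73% to 9.46% of lactate dehydrogenase UMIs in T cells. It took at most 1.72% in neutrophils. Classical monocytes reached a higher share than T cells, 17.2% in sham blood. Their Ldhb UMIs were 16, 2, 25 and 21 in metastasis lung, sham lung, metastasis blood and sham blood. Ldha had 111, 27, 151 and 101 UMIs in that order. The lactate exporter Slc16a3 held at least 99.3% of the UMIs of Slc16a1 and Slc16a3 in neutrophils, whereas Slc16a1, which carries lactate both ways, held 87.8% to 98.7% in T and B cells.

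**Figure D2:**
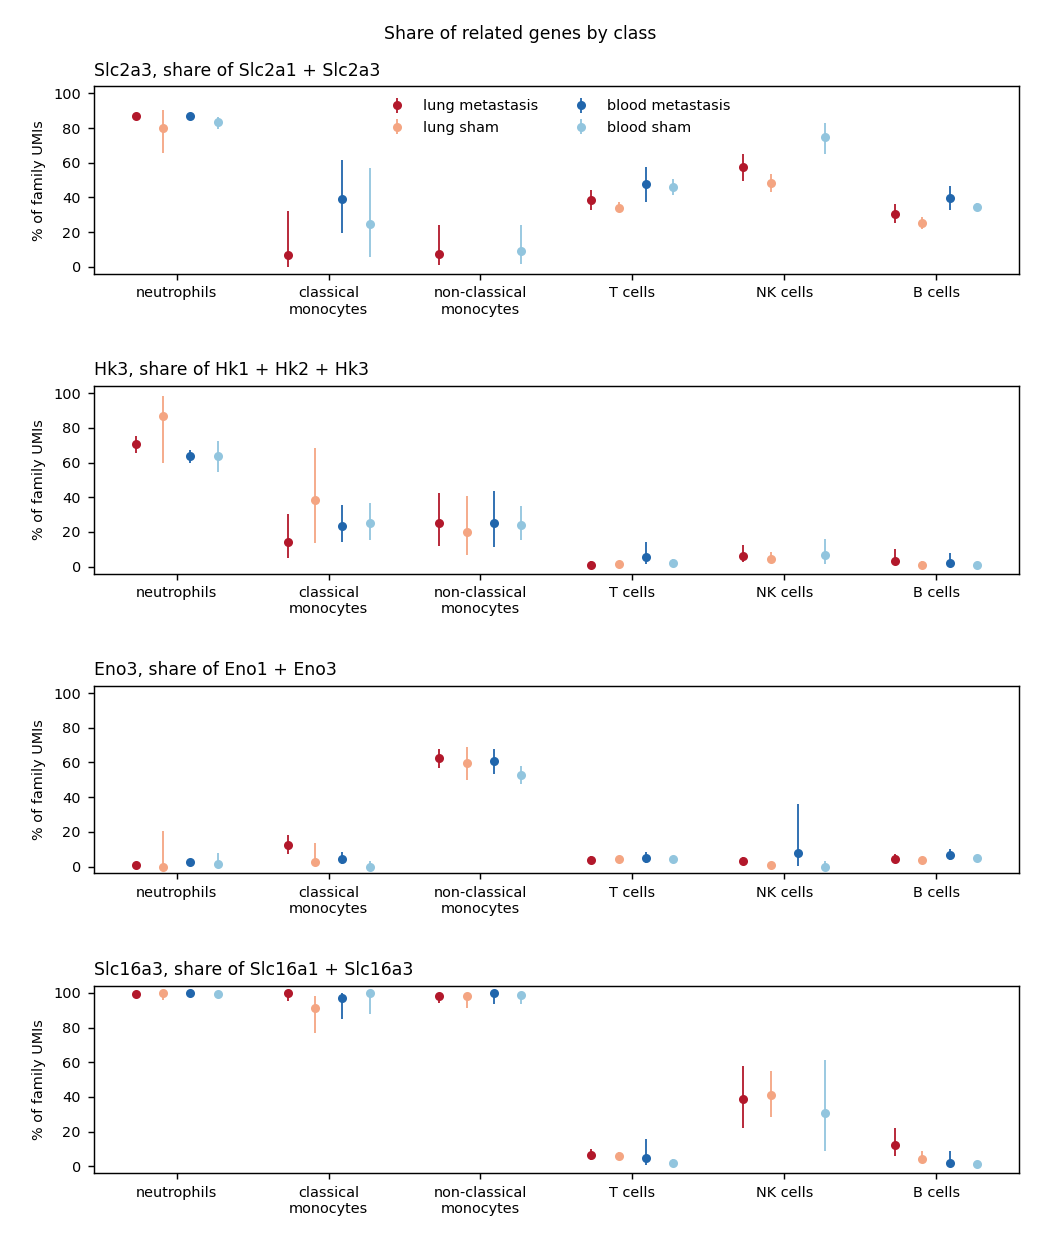
Each panel gives the share of 1 gene in the UMIs of its family (percent, vertical axis) by class, with exact Clopper-Pearson 95% intervals, where the family had at least 10 UMIs. Slc2a3 and Hk3 had their highest shares in neutrophils, Slc16a3 held at least 91.4% in neutrophils and both monocyte classes, and Eno3 held 52.9% to 62.5% in non-classical monocytes and at most 12.2% elsewhere.

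Genes of the oxygen response spread more widely. Pdk1 encodes a kinase that inhibits pyruvate dehydrogenase. It had 57.8, 53.2, 87.5 and 82.2 CPM in T cells of metastasis lung, sham lung, metastasis blood and sham blood. It was at most 27.5 CPM in any library of the other classes. P4ha1, a collagen prolyl hydroxylase, had 115, 76.3, 102 and 108 CPM in non-classical monocytes in the same order. Egln3 did not exceed 25.4 CPM in any class and library.

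The first question was how the metastasis arm differed from the sham arm within a class. A gene was measured where both libraries had at least 30 cells of the class, the gene had at least 100 UMIs over both and a mean of at least 10 CPM. It was called where the CPM differed by at least 1.5-fold and the 95% interval of the log2 ratio excluded equality.

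Blood neutrophils showed the most differences between arms, in both directions. Of 22 measured members, 5 were called higher and 4 lower, against 15% and 21.4% of all 4463 genes measured, so the members' counts were near those of all genes. Those higher were the enzymes Gpi1, Tpi1, Gapdh, Pgam1 and Ldha. Those lower were the transporter Slc16a3, the phosphofructokinase Pfkp, Hif1a and Ndrg1, a gene known to be induced by hypoxia and by differentiation. The median log2 ratio of the members was 0.03, and that of all genes was -0.11. Of the calls over all genes 41.1% were higher, against 64.1% with TMM scaling and 62.7% with a total that left out the most abundant genes.

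Gpi1, which converts glucose phosphate to fructose phosphate, had 661 CPM in metastasis blood neutrophils and 233 CPM in sham blood neutrophils, a log2 ratio of 1.51 (95% interval 1.29 to 1.74). Gapdh had 970 CPM in the metastasis library and 494 CPM in the sham library, a log2 ratio of 0.97 (0.82 to 1.13). Ldha had 287 CPM in metastasis and 153 CPM in sham, a log2 ratio of 0.91 (0.64 to 1.20). Pgam1, a mutase of the lower pathway, and Tpi1, which interconverts triose phosphates, were also called higher, with log2 ratios of 1.07 (0.66 to 1.52) and 0.75 (0.03 to 1.56). Tpi1 lost its call under 5 of 13 alternatives.

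Ndrg1 had the largest ratio, with 15.0 CPM in metastasis and 103 CPM in sham, a log2 ratio of -2.78 (-3.28 to -2.29). Platelets of the same libraries held 118 and 408 CPM of Ndrg1, and by the ratio to platelet markers 4.35% and 2.49% of the Ndrg1 UMIs of these neutrophils would come from platelets. With all cells that had any platelet marker left out, an alternative chosen after the data were seen, the log2 ratio was -3.10. Slc16a3 had 197 CPM in metastasis and 405 CPM in sham blood neutrophils, a log2 ratio of -1.04 (-1.23 to -0.85). Pfkp had 38.2 CPM in metastasis and 93.6 CPM in sham, a log2 ratio of -1.29 (-1.70 to -0.87). Hif1a had 153 CPM in metastasis and 277 CPM in sham, a log2 ratio of -0.85 (-1.08 to -0.62).

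The maturity of the neutrophils moved with these values. Neutrophils with at least 2 UMIs of Ngp, Camp or Ltf, granule genes of immature neutrophils, were 44.5% of metastasis blood neutrophils and 0.755% of sham blood neutrophils, and 44.6% and 29.2% in metastasis and sham lung. The part of this difference in the ratios was not tested beyond the comparison that follows. When only cells without these markers were compared, Gpi1 had 329 CPM in metastasis and 224 CPM in sham, a log2 ratio of 0.55 (0.30 to 0.81), below the fold required for a call. The log2 ratio was then 0.58 for Gapdh, 0.48 for Ldha, 0.33 for Pgam1, -0.42 for Slc16a3 and -0.21 for Hif1a, all without a call, and Tpi1 was no longer called. Bnip3l, at 0.65, gained a call. Red-cell barcodes of metastasis and sham blood held 6596 and 7179 CPM of Bnip3l. Haemoglobin was 15.6% and 9.09% of the UMIs of all neutrophils in these libraries. The part of red-cell RNA in this call was not tested. Ndrg1, at -2.04 (-2.61 to -1.49), and Pfkp, at -1.02, stayed called.

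**Figure D3:**
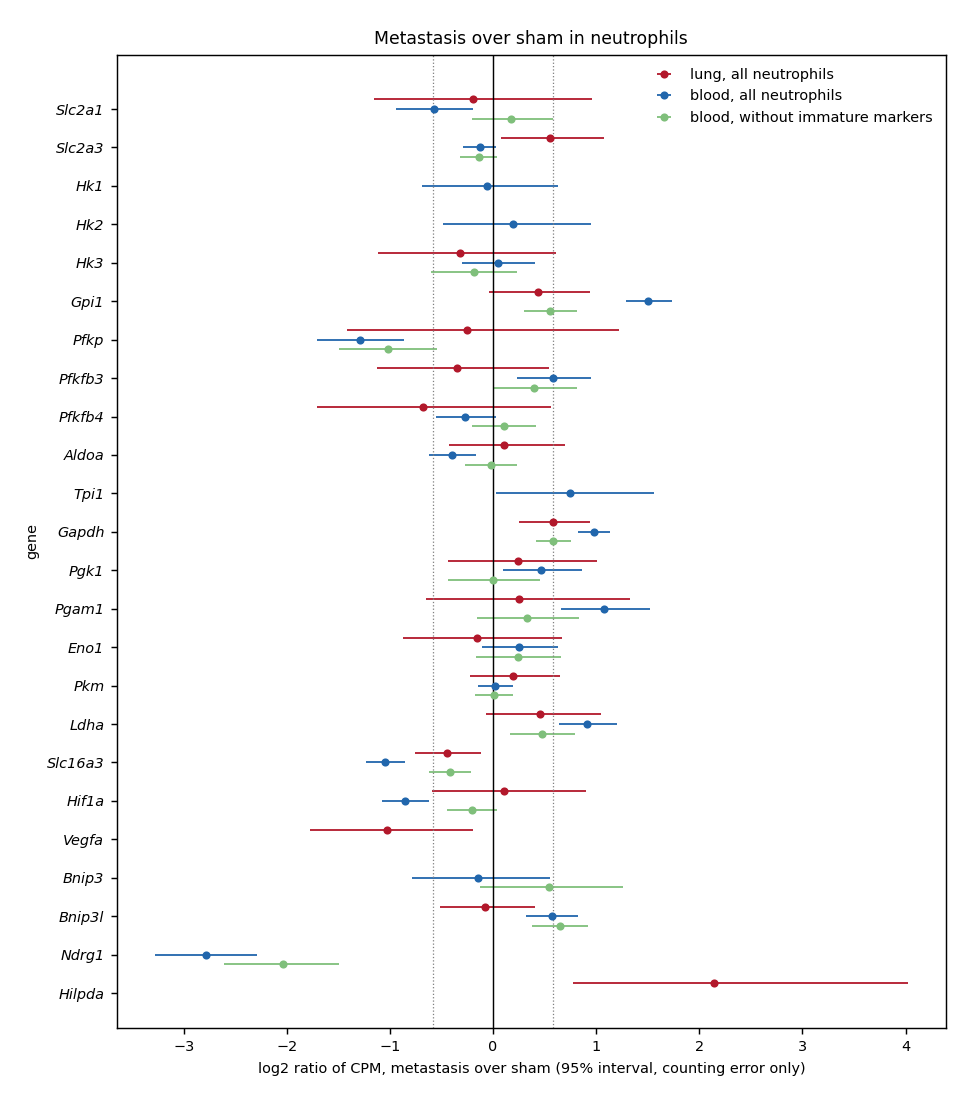
Log2 ratios of CPM, metastasis over sham, with 95% counting intervals for the measured members in lung neutrophils, blood neutrophils and blood neutrophils without immature markers; dotted lines mark 1.5-fold. Gpi1 stood at 1.51 in all blood neutrophils and at 0.55 in those without immature markers, and Ndrg1 at -2.78 and -2.04.

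Within the metastasis libraries neutrophils with and without immature markers were also compared with each other, a split examined after the data were seen. In metastasis blood Gpi1 had 888 CPM in the 684 cells with the markers and 329 CPM in the 853 cells without, a log2 ratio of 1.43 (1.30 to 1.57). In metastasis lung it had 598 CPM in 554 cells with and 291 CPM in 688 cells without the markers, a log2 ratio of 1.04 (0.84 to 1.24). Pgam1, Gapdh, Ldha and Pgk1 were also higher with the markers in both tissues, by log2 ratios of 0.64 to 1.44. Hif1a and Slc16a3 were lower with the markers in both tissues, at -1.42 and -1.36 in blood and -0.93 and -0.58 in lung. Slc2a1 was lower as well, at -1.77 in blood and -0.67 in lung. Cells with the markers were deeper, with median UMI counts without haemoglobin of 2591 against 1258.5 in lung and 3429 against 1991 in blood. Aldoa went opposite ways, at 0.45 in lung and -0.68 in blood, and Tpi1 in blood was at -0.096 (-0.56 to 0.37). Ndrg1 had too few UMIs for this comparison. The part of depth in the split was not tested.

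**Figure D4:**
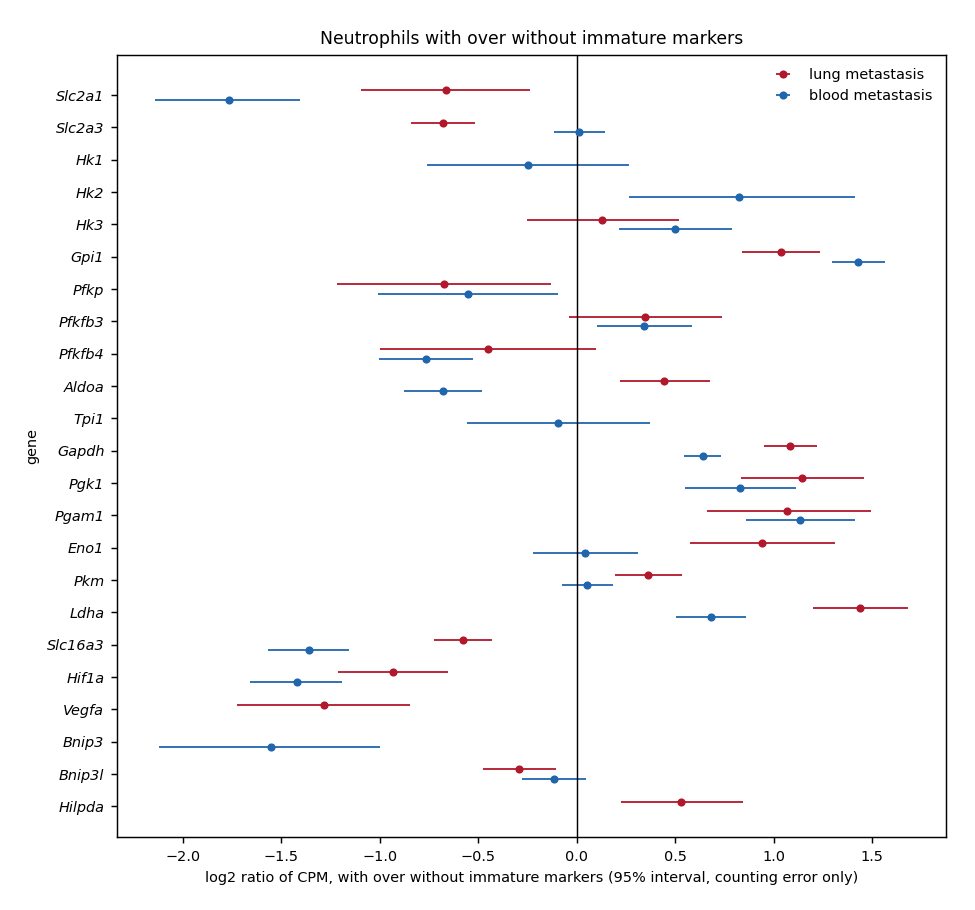
Log2 ratios of CPM between neutrophils with and without immature markers inside the metastasis lung and metastasis blood libraries, with 95% counting intervals. Gpi1, Pgam1, Gapdh, Ldha and Pgk1 lie right of 0 in both tissues, and Hif1a, Slc16a3 and Slc2a1 lie left of it.

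Lung neutrophils differed less between arms, with 48 cells limiting the sham side. Of 19 measured members 1 was called higher and 1 lower, against 4.39% and 6.12% of all 2645 genes measured. The median log2 ratio of the members was 0.10 and that of all genes 0.01. Of the calls over all genes 41.7% were higher, against 84.4% with TMM scaling. Hilpda had 170 CPM in metastasis lung neutrophils and 38.6 CPM in sham lung neutrophils, a log2 ratio of 2.14 (0.78 to 4.02) that rests on 4 UMIs in 2 sham cells. Vegfa had 75.3 CPM in metastasis and 154 CPM in sham, a log2 ratio of -1.03 (-1.77 to -0.20), which lost its call with TMM scaling, with a gate of 4 markers and in neutrophils without immature markers. With TMM scaling 5 members were called higher, Slc2a3, Gapdh, Gpi1 and Ldha besides Hilpda, and 0 lower.

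Monocytes had few calls. In lung, 1 of 11 measured members was called higher and 0 lower in classical monocytes, against 3.49% and 4.41% of all genes. In non-classical monocytes of lung it was again 1 of 11 higher and 0 lower, against 3.89% and 2.51%. Gapdh had 915 CPM in metastasis and 560 CPM in sham lung classical monocytes, a log2 ratio of 0.71 (0.38 to 1.05) that lost its call with platelet-carrying barcodes kept. Pgam1 had 185 CPM in metastasis and 110.3 CPM in sham lung non-classical monocytes, a log2 ratio of 0.75 (0.12 to 1.43). In blood classical monocytes 0 of 12 members were called, against 5.34% higher and 3.17% lower over all genes. In blood non-classical monocytes 3 of 16 were called higher and 0 lower, against 5.48% and 5.74%. These were Pgam1 with 155 CPM in metastasis and 90.4 in sham, Eno3 with 310 and 204, and Slc16a3 with 150 and 91.5 CPM in the same order. Their log2 ratios were 0.78, 0.60 and 0.71. With the mean of each cell Eno3 and Slc16a3 lost their calls, as did Eno3 with platelet-carrying barcodes kept. Slc16a3 was thus called higher in blood non-classical monocytes and lower in blood neutrophils of the metastasis arm. The difference between these classes was not tested.

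Lymphocytes had 1 call between arms in these genes over both tissues. In lung, 0 of 24 measured members were called in T cells, 0 of 21 in NK cells and 0 of 22 in B cells. Over all genes 1.49% were called higher and 0.203% lower in lung T cells, 1.55% and 1.25% in NK cells, and 1.82% and 0.539% in B cells. In blood, 0 of 23 were called in T cells and 0 of 23 in B cells, against 3.83% higher and 1.44% lower in T cells and 1.61% and 0.781% in B cells. The median log2 ratio of the members was 0.11 in lung T cells, 0.11 in lung NK cells and 0.06 in lung B cells, where all genes had 0.04, -0.02 and 0.00. In blood NK cells 1 of 8 was called higher and 0 lower, against 2.86% and 3.29%. It was Gpi1, with 178 CPM in the 42 metastasis cells and 88.8 CPM in the 210 sham cells, a log2 ratio of 1.00 (0.26 to 1.69). This call was lost with a gate of 4 markers, with Scrublet, without cells over 5% haemoglobin and without cells with any platelet marker. Ldha in T cells, as an example of a value that was not called, had 219 CPM in metastasis lung and 194 CPM in sham lung.

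The second question was how cells in lung differed from cells of the same class in blood. Hilpda was called higher in lung in neutrophils and in all 3 lymphocyte classes. In neutrophils it had 170 CPM in metastasis lung and 5.07 CPM in metastasis blood, a 33.6-fold difference (log2 ratio 5.07, 4.45 to 5.76). The 418 UMIs came from 225 of the 1242 lung cells, with at most 11 in 1 cell. In sham libraries neutrophil Hilpda rested on 4 UMIs in lung and 1 in blood and was not measured. Hilpda was below the count minimum in both monocyte classes. For the metastasis arm, classical monocytes had 38.5 CPM in lung against 4.19 CPM in blood. For the sham arm they had 79.1 against 13.2 CPM, with 9 of the 13 lung UMIs in 1 cell. The non-classical values were 20.6 against 2.67 CPM in metastasis and, the other way, 0 against 3.31 CPM in sham.

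In T and B cells the Hilpda ratio was smaller than in neutrophils and was called in both arms. T cells had 29.2 CPM in metastasis lung and 10.4 in metastasis blood, and 27.4 CPM in sham lung and 11.4 in sham blood, with log2 ratios of 1.49 (0.84 to 2.20) and 1.26 (0.99 to 1.54). B cells had 32.4 CPM in metastasis lung and 14.2 in metastasis blood, and 34.4 CPM in sham lung and 12.01 in sham blood, with log2 ratios of 1.19 (0.75 to 1.65) and 1.52 (1.31 to 1.72). These 4 calls held under every alternative run. NK cells had 28.8 CPM in sham lung and 16.2 CPM in sham blood, a log2 ratio of 0.84 (0.03 to 1.75) that lost its call with TMM scaling, with a total that left out abundant genes and without cells over 5% haemoglobin. In the metastasis arm NK cells had 66 UMIs in lung and 2 in blood and were not measured. Splitting sham T cells after the data were seen, the log2 ratio was 1.45 in CD4 and 1.06 in CD8 cells. Endothelial barcodes of sham lung, assigned by markers of tissue cells, had 267 CPM of Hilpda, on 22 UMIs in 61 barcodes. Stromal barcodes of that library had 7.67 CPM on 1 UMI, and epithelial barcodes had 0 CPM. The part of tissue-cell RNA in the Hilpda differences was not tested.

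Vegfa was called higher in lung than in blood in NK cells of both arms and in metastasis neutrophils. NK cells had 97.6 CPM in metastasis lung and 7.73 CPM, a single UMI, in metastasis blood, a log2 ratio of 3.66 (1.16 to 8.97). They had 100.1 CPM in sham lung and 10.4 CPM in sham blood, a log2 ratio of 3.27 (2.33 to 4.41). The 194 UMIs of metastasis lung came from 135 of 920 NK cells. In B cells of the same library, at a median of 1716 UMIs without haemoglobin against 1990 in NK cells, 14 UMIs fell in 14 of 2141 cells. Neutrophils had 75.3 CPM in metastasis lung and 15.2 CPM in metastasis blood, a log2 ratio of 2.31 (1.90 to 2.74). Classical monocytes were below the count minimum, with 31 and 6 UMIs in metastasis and sham lung against 1 and 0 in the blood of the same arms. Sham neutrophils, also below it, had 154 CPM in lung and 29.4 CPM in blood. The remaining classes were below it too, and their values lay higher in lung. In sham, T cells had 3.33 against 0.386 CPM, B cells 3.29 against 1.34 and non-classical monocytes 17.0 against 0. In metastasis the values were 2.22 against 0, 3.55 against 0.888 and 17.1 against 0 CPM. Among lung barcodes with markers of tissue cells, Vegfa had 328 CPM in 61 endothelial and 99.7 CPM in 30 stromal barcodes of sham lung. Epithelial barcodes had 4.77 CPM in metastasis lung and 35.3 CPM in sham lung. In lung NK cells the 6 endothelial markers summed to 3.52 CPM in metastasis and 1.44 CPM in sham, with 3 and 4 of them detected, and to 0 CPM in blood NK cells of both arms. The 6 stromal markers summed to 2.51 and 0.240 CPM in lung NK cells of metastasis and sham and to 0 CPM in blood. The 6 epithelial markers summed to 11.6 and 4.80 CPM in lung and to 0 and 1.15 CPM in blood NK cells, in the same order of arms. In metastasis lung neutrophils the endothelial, stromal and epithelial sums were 0.815, 1.22 and 13.8 CPM, against 0.460, 0.691 and 1.15 CPM in metastasis blood neutrophils. The part of tissue-cell RNA in the Vegfa difference was not tested.

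Slc16a3 was higher in lung than in blood in the myeloid classes. Neutrophils had 623 CPM in metastasis lung and 197 CPM in metastasis blood, a log2 ratio of 1.66 (1.54 to 1.79). They had 848 CPM in sham lung and 405 CPM in sham blood, a log2 ratio of 1.07 (0.71 to 1.41). Without immature markers the log2 ratios were 1.34 and 1.36. Classical monocytes had 164 CPM in metastasis lung and 46.1 CPM in metastasis blood, a log2 ratio of 1.83 (1.23 to 2.46), and 195 and 46.3 CPM in sham lung and sham blood with too few UMIs to be measured. Non-classical monocytes had 238 CPM in metastasis lung and 150 in metastasis blood, and 254 CPM in sham lung and 91.5 in sham blood, with log2 ratios of 0.67 (0.21 to 1.15) and 1.48 (0.97 to 1.97).

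**Figure D5:**
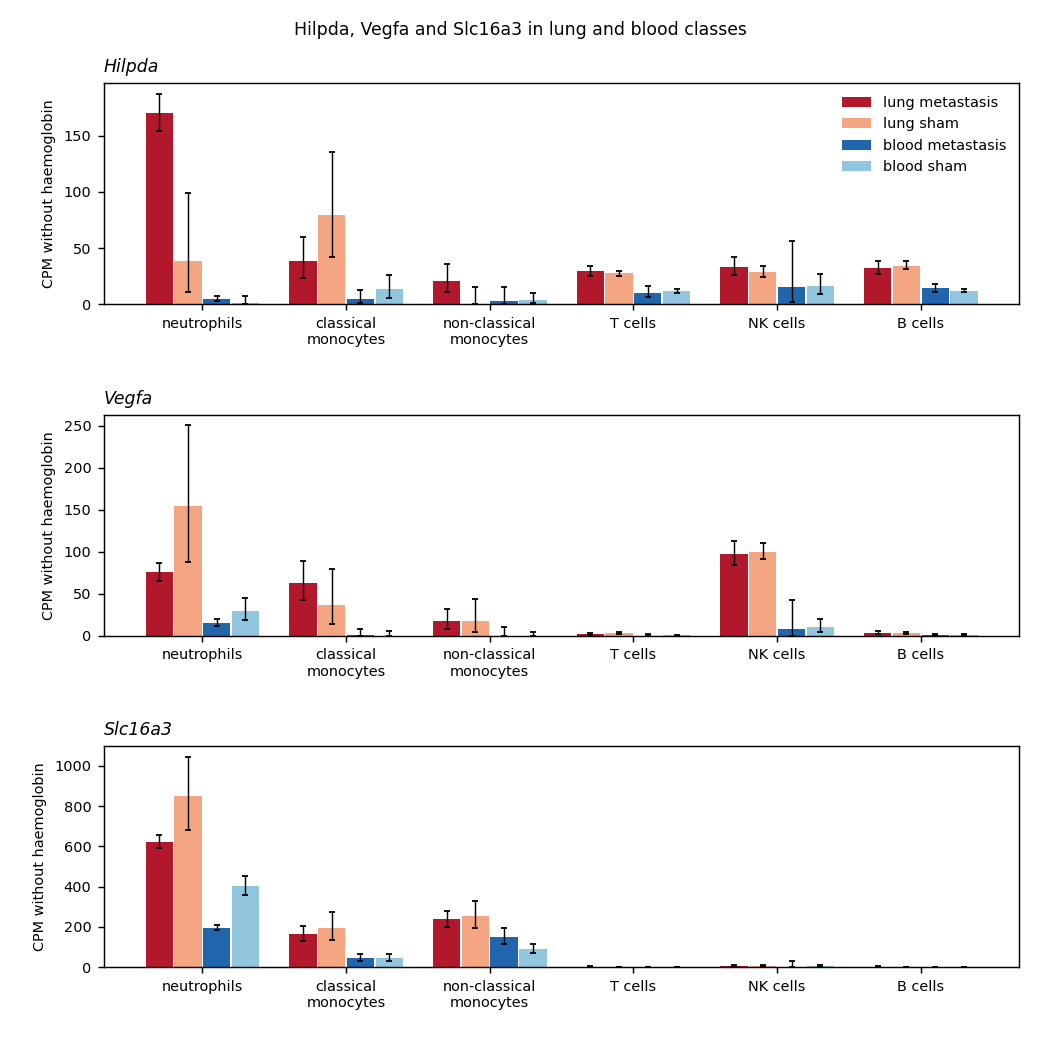
Bars give CPM without haemoglobin of Hilpda, Vegfa and Slc16a3 by class, lung libraries left of blood libraries, with exact Poisson 95% intervals. Hilpda reached 170 CPM in metastasis lung neutrophils, Vegfa was near 100 CPM in lung NK cells, and Slc16a3 was at most 6.04 CPM in T, NK and B cells.

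Counts over all members in neutrophils stood beside many differences over all genes. In the metastasis arm 6 of 24 were called higher in lung and 3 lower, against 11.9% and 35.6% of all genes. In the sham arm it was 4 of 10 higher and 2 lower, against 13.2% and 36.2%. The median log2 ratio of the members was 0.15 in the metastasis arm and 0.32 in the sham arm, where all genes had -0.36 and -0.47. Besides Hilpda, Vegfa and Slc16a3, metastasis lung neutrophils had more Ndrg1 (28.5 against 15.0 CPM in metastasis blood), Pgk1 (205 against 122) and Aldoa (301 against 195). They had less Pfkfb4 (48.1 against 134 CPM), Hk2 (16.7 against 30.6) and Tpi1 (23.6 against 38.2). Pfkfb4 was lower in sham lung too, at 77.1 CPM against 161.9 CPM in sham blood, on 8 lung UMIs. Ndrg1 lay the other way in the sham arm, at 28.9 CPM in lung and 103 CPM in blood. With 3 lung and 77 blood UMIs it was below the count minimum there. In neutrophils without immature markers Ndrg1, Pgk1, Aldoa, Hk2 and Tpi1 lost their calls in the metastasis arm, with Aldoa at -0.034. Gpi1 and Ldha were called higher and Hif1a lower in sham lung, on 37, 29 and 17 lung UMIs, and all 3, like Pfkfb4, lost the call in cells without immature markers, where the log2 ratio of Ldha was -0.9997. That was not the only alternative to do so. Of 13 run, Hif1a lost its sham call under 8, Pfkfb4 under 7 and Gpi1 under 3, while Ldha lost it under 2 and reversed under 1.

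In monocytes the member counts were low. Classical monocytes had 1 of 13 called higher and 0 lower in the metastasis arm, against 8.68% and 5.87% of all genes, and 0 of 9 higher and 1 lower in the sham arm, against 10.1% and 5.71%. The lower one was Gapdh, with 560 CPM in the 31 cells of sham lung and 858 CPM in sham blood. This call was lost with platelet-carrying barcodes kept (-0.33, otherwise -0.62), with Scrublet and with the mean of each cell. Non-classical monocytes had 2 of 13 higher and 0 lower in the metastasis arm, against 11.2% and 5.45%, and 1 of 13 higher and 0 lower in the sham arm, against 9.24% and 9.63%. Ldha was the other gene called in metastasis non-classical monocytes, with 243 CPM in lung and 158 CPM in blood, and it lost the call with a total that left out abundant genes and without cells with any platelet marker. Slc16a3 in metastasis classical monocytes lost its call without cells over 5% haemoglobin.

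T cells had 2 of 23 members called higher in lung and 1 lower in the metastasis arm, against 13.5% and 3.21% of all genes. In the sham arm 5 of 23 were higher and 1 lower, against 11.9% and 3.09%. Slc16a1 had 35.9 CPM in metastasis lung and 19.9 in metastasis blood, and 35.6 CPM in sham lung and 21.9 in sham blood. In sham CD4 T cells it had 30.04 CPM in lung and 9.25 CPM in blood, a log2 ratio of 1.70 (1.04 to 2.41), and in sham CD8 T cells 39.7 and 32.5 CPM, a log2 ratio of 0.29 (0.04 to 0.54). Slc2a1, the widely expressed glucose transporter, had 37.4 CPM in sham lung and 18.1 in sham blood T cells, a log2 ratio of 1.05 (0.83 to 1.27). In the metastasis arm it had 29.9 CPM in lung and 25.1 CPM in blood T cells, a log2 ratio of 0.25 (-0.20 to 0.73) without a call. Pdk1 was lower in lung T cells in both arms, with 57.8 CPM in metastasis lung against 87.5 in metastasis blood and 53.2 CPM in sham lung against 82.2 in sham blood. Its call was lost with a gate of 4 markers and without cells over 5% haemoglobin in the metastasis arm, and with the mean of each cell in the sham arm. Slc16a1 lost its sham call with a total that left out abundant genes. Pgam1, at 46.1 CPM in sham lung and 30.7 CPM in sham blood T cells, lost its call under 5 of 12 alternatives.

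NK cells had 2 of 15 higher and 1 lower in the metastasis arm, against 8.87% and 3.31% of all genes, and 3 of 21 higher and 2 lower in the sham arm, against 12.7% and 4.48%. In sham NK cells Slc2a1 was higher in lung (48.98 against 29.99 CPM in blood), while Slc2a3 (45.6 against 88.8) and Hk1 (39.6 against 65.8) were lower. Slc2a1 and Hk1 lost these calls with a gate of 4 markers, and Slc2a1 also with a total that left out abundant genes. In metastasis NK cells Gpi1 was lower in lung, at 102 CPM against 178 CPM in the 42 cells of blood. B cells had 3 of 22 higher and 1 lower in the metastasis arm, against 8.1% and 3.51%, and 2 of 23 higher and 0 lower in the sham arm, against 7.74% and 3.02%. Slc2a1 in B cells had 51.4 CPM in metastasis lung and 26.9 CPM in metastasis blood, a log2 ratio of 0.94 (0.61 to 1.27). Pdk1 in B cells had 15.7 CPM in metastasis lung and 27.5 CPM in metastasis blood.

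Bnip3l, a mitophagy receptor that red cells need to lose their mitochondria, was among the calls higher in lung but moved with red-cell RNA. It had 346 CPM in metastasis lung B cells and 212 CPM in metastasis blood B cells, and 265 CPM in sham lung and 156 CPM in sham blood B cells. By its ratio to haemoglobin in barcodes of 90% haemoglobin or more, red-cell RNA would supply 57.3% and 51.1% of these UMIs in metastasis lung and blood, and 55.0% and 30.2% in sham lung and blood. The calls for Bnip3l in B cells of both arms, metastasis NK cells, sham T cells and sham neutrophils were all lost when that part was subtracted. For the other members called in lung against blood it was at most 1.18%.

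Further gene lists were read beside the members. In blood neutrophils 10 of 20 measured glycolysis neighbours were called higher in metastasis and 2 lower, against 15% and 21.4% of all genes. Their median log2 ratio was 0.70, where all genes had -0.11. The part of the immature neutrophils, 44.5% of cells in metastasis and 0.755% in sham, in these counts was not tested. Among those higher was Bpgm, an enzyme of red cells, with 230 CPM in metastasis and 116 CPM in sham. By its ratio to haemoglobin, red-cell RNA would supply 94.2% of these UMIs in metastasis. In sham the estimate was 154%, more than the UMIs present. The part of red-cell RNA in the counts was not tested either. Adpgk, an ADP-dependent glucokinase, had 238 CPM in metastasis and 29.4 CPM in sham, a log2 ratio of 3.01 (2.41 to 3.70). Among other hypoxia-response genes 1 of 14 was higher, Ier3, and 1 was lower, Mxi1. In lung against blood, 5 of 7 measured other hypoxia-response genes were called higher in classical monocytes and 4 of 4 in non-classical monocytes of the metastasis arm and 0 lower, against 8.68% and 11.2% of all genes higher. Their median log2 ratios were 0.94 and 1.10, where all genes had -0.01 and 0.04. In the sham arm 2 of 2 were higher in classical and 2 of 5 in non-classical monocytes, against 10.1% and 9.24%. Neutrophils of the metastasis arm had 5 of 18 higher and 7 lower, with a median of -0.17, against 11.9% and 35.6% of all genes. Cdkn1a, a cell cycle inhibitor, had 411 CPM in metastasis lung and 120.2 CPM in metastasis blood non-classical monocytes. Plin2, a lipid droplet coat protein, had 638 CPM in metastasis lung and 275 CPM in metastasis blood non-classical monocytes. In T cells 8 of 18 other hypoxia-response genes were higher in lung in the metastasis arm and 5 of 18 in the sham arm, against 13.5% and 11.9% of all genes, and 0 were lower in both. The medians were 0.55 and 0.39, against 0.12 and 0.11 over all genes. NK cells had 2 of 12 and 4 of 20 higher in the metastasis and sham arms, against 8.87% and 12.7%, and 0 and 1 lower. Their medians were 0.22 and 0.32, against 0.12 and 0.08 over all genes. B cells had 1 of 19 and 3 of 19 higher, against 8.1% and 7.74%, and 1 and 0 lower. Their medians were 0.07 and 0.05, against 0.01 and 0.04.

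Among regulators of glucose use, Txnip, which restrains glucose uptake, was lower in lung lymphocytes and in the myeloid classes of sham lung. T cells had 228 CPM in metastasis lung and 737 CPM in metastasis blood, and 153 CPM in sham lung and 537 CPM in sham blood. NK cells had 252 CPM in metastasis lung and 441 in metastasis blood, and 164 CPM in sham lung and 445 in sham blood. Sham neutrophils had 376 CPM of Txnip in lung and 649 in blood. Sham classical monocytes had 12.2 CPM, on 2 UMIs, in lung and 162 in blood, and sham non-classical monocytes 55.1 and 164. In metastasis neutrophils 1 of 7 measured regulators was called higher in lung and 3 lower, against 11.9% and 35.6% of all genes. The lower ones were Rptor, Mlxip and Mtor. Each monocyte class of that arm had only 1 regulator measured, and it was not called. Bpgm is the enzyme of red cells that makes bisphosphoglycerate. It was called higher in lung than in blood in several classes. Between arms it was called higher in metastasis in several classes and lower in lung neutrophils. Red-cell RNA would supply 83.8% and 88.7% of its UMIs in B cells of metastasis lung and blood.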

How the data were processed

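Single-cell RNA was measured in 4 libraries with 1 library per tissue and arm. The authors deposited raw UMI counts per gene and barcode, without normalisation. The GRCm38.p6 build, R 4.3.1, Seurat 4.3.0.1 and Cell Ranger 7.0.0 are named per the submitters' processing notes, in roles not given in the sources used here. How reads shared with pseudogenes of Gapdh, Pgk1, Ldha or Eno1 were counted is not given either. A second row named Aldoa held at most 2 counts per library and was kept apart.

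Barcodes with at least 200 genes and at most 10% mitochondrial UMIs were gated in Python 3.11.15 (numpy 2.4.6, scipy 1.17.1, pandas 2.3.3) into the class with the most distinct markers. At least 3 markers were needed, with every other class at that number divided by 3 or less, which also served as the filter on doublets. Counts were summed per class and library and divided by the total without haemoglobin. Ratios were given 95% intervals from an exact binomial on the UMIs of both libraries, levels exact Poisson and shares exact Clopper-Pearson intervals. Intervals cover counting error only. The 34 members, the marker lists and the further gene lists were chosen with earlier results of these data known. Called members were named first, and of further lists at most the 3 largest log2 ratios per list and comparison. Scripts were tested on simulated counts. Alternatives were stricter and looser cell filters, a stricter gate, platelet-carrying cells kept or any platelet marker excluded, cells over 5% haemoglobin excluded, Scrublet (scanpy 1.11.5, score 0.3), TMM scaling (edgeR 4.0.16), a total without abundant genes, the mean of each cell, red-cell RNA subtracted, a lower count minimum and mature neutrophils only.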

Additional observations from a re-analysis of the deposited data

How the results depend on the processing

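No paired analysis was possible because each tissue and arm had 1 library, and for the same reason no replicate could be left out. Of 60 called pairs of a member and a comparison, 24 kept the call under every alternative run and 36 lost it under at least 1. The member median moved by more than its interval in 3 of 288 cases. With TMM scaling it was -0.090 in B cells between arms in blood (otherwise -0.03) and 0.47 in neutrophils of metastasis lung over blood (otherwise 0.15), and with a total that left out abundant genes it was -0.070 in T cells of metastasis lung over blood (otherwise 0.09). Calls that reversed direction were Aldoa in neutrophils of metastasis lung over blood (-0.034, mature cells only), Ldha in neutrophils of sham lung over blood (-0.9997, mature cells only) and Bnip3l in neutrophils of sham lung over blood (-0.36, without cells over 5% haemoglobin). The cause was not tested.

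Counts of called members moved by over 1.5 times in several comparisons. In blood neutrophils between arms 1 to 8 were higher (otherwise 5) and 2 to 6 lower (otherwise 4). In lung neutrophils between arms 1 to 5 were higher (otherwise 1) and 0 to 1 lower. In neutrophils of lung over blood 3 to 10 were higher (otherwise 6) and 1 to 8 lower (otherwise 3) in metastasis, and 2 to 6 higher (otherwise 4) and 0 to 3 lower (otherwise 2) in sham. T cells of sham lung over blood had 2 to 10 higher (otherwise 5), blood T cells between arms 0 to 3 (otherwise 0), and classical monocytes of metastasis lung over blood 0 to 4 (otherwise 1). Elsewhere the counts moved by at most 2.

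TMM scaling shifted the median of all genes in neutrophils by 0.26 and 0.21 between arms in lung and blood and by 0.32 and 0.27 between tissues in metastasis and sham, and in blood T cells by -0.10. The total without abundant genes shifted it by 0.20 in blood neutrophils, 0.17 in sham neutrophils between tissues, -0.16 in T cells of both arms, and -0.12 and -0.13 in NK cells of metastasis and sham. The share of calls over all genes that were higher moved by over 10 points as follows. With TMM scaling between arms it was 64.4% in lung classical monocytes (otherwise 44.2%), 73.1% in lung T cells (88%), 47.0% in blood T cells (72.6%), 27.3% in blood NK cells (46.5%) and 50.5% in blood B cells (67.4%). With TMM scaling between tissues it was 49.9% in metastasis neutrophils (24.98%), 43.1% in sham neutrophils (26.7%), 53.4% in sham classical monocytes (64.0%) and 66.2% in sham T cells (79.4%). With the total without abundant genes it was 52.2% in lung neutrophils (41.7%), 48.8% in blood classical monocytes (62.8%) and 59.9% in blood T cells (72.6%) between arms. Between tissues it was then 56.1% in metastasis T cells (80.8%), 54.0% in metastasis NK cells (72.8%), 59.6% in metastasis B cells (69.8%), 52.8% in sham classical monocytes (64.0%), 38.6% in sham non-classical monocytes (49.0%), 56.0% in sham T cells (79.4%), 54.8% in sham NK cells (73.9%) and 59.4% in sham B cells (71.9%).

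With a gate of 4 markers or without cells over 5% haemoglobin, sham lung classical monocytes fell below 30 cells and gave no value. The 48 sham lung neutrophils, 31 sham lung classical monocytes and 42 metastasis blood NK cells limit the comparisons that use them. Alternatives without any platelet marker, with neutrophils split by immature markers and with T cells split into CD4 and CD8 were chosen after seeing the data.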
